A study of Mus musculus with 4 samples.

Results

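The Socs family comprises Socs1 to Socs7 and Cish, 8 genes for feedback inhibitors of cytokine signalling. The members were taken by gene symbol from the m6A peak lists, the differential peak table and the gene expression table, and all 8 were found among 14798 genes with an m6A peak in at least 1 genotype. The libraries came from C57BL/6 bone marrow cells grown for 7 days with macrophage colony-stimulating factor, which turns them into macrophages (BMDM), and then kept for 24 hours beside MC38, a colon carcinoma line of mouse. The WT group was Mettl3fl/fl, with loxP sites around part of Mettl3 and no Cre, and the cKO group was Mettl3fl/fl with LysM-cre, in which the lysozyme M promoter expresses Cre in myeloid cells, macrophages and others. Both groups had the floxed alleles, the growth factor and the co-culture. Each genotype had 1 library of RNA fragments bound by an m6A antibody (IP) and 1 of the unselected fragments (input), so no spread between cultures is known and no test was run here. Whether animals were pooled is not given in the sources used here.

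Socs proteins bind phosphorylated receptors or Jak kinases through an SH2 domain, and their C-terminal SOCS box recruits Elongin B and Elongin C with the scaffold Cul5 into a ubiquitin ligase. Cish and Socs1 to Socs3 are induced by cytokines through Jak kinases and Stat transcription factors and then damp the same pathway, while Socs4 to Socs7 have longer N-terminal parts and act on growth factor receptors and insulin signalling as well. Mettl3 catalyses the methylation of adenosine to N6-methyladenosine (m6A) in messenger RNA, mostly at a DRACH motif (D is A, G or T, R is A or G, and H is A, C or T), often near the stop codon, and m6A is known to shorten the life of many transcripts, Socs transcripts among them in T cells.

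Candidate sites are shown because the strongest m6A signal of most members lay over the end of the coding sequence. For each member, the GGACT nearest to the stop codon within its WT peak over that codon was taken. Socs1 had 0 GGACT there, and its nearest GGACC was taken. For Socs7, whose WT list had no peak over the stop codon, the 5' peak was used, and no Socs6 sequence is shown. Each line gives 21 bases of the GENCODE M21 transcript, 5′ to 3′ in DNA letters, with the motif in capitals.

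Socs1: tggggccaGGACCtgaattcc

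Socs2: cgatctggGGACTgcctttac

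Socs3: ggccacctGGACTcctatgag

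Cish: gccgacgtGGACTgcctaccc

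Socs4: attgagttGGACTtagatcat

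Socs5: gcacaggaGGACTacctcttc

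Socs7: ccgctgcaGGACTtggtccct

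On mm10, the Socs1 site lay in the 3' UTR at chr16:10783976-10783996 on the minus strand, its A 247 bases after the stop codon. The sites of Socs2 (chr10:95412700-95412720, minus strand), Socs3 (chr11:117967616-117967636, minus strand) and Cish (chr9:107300829-107300849, plus strand) all lay in the last part of the coding sequence, with the A 57, 73 and 61 bases before the end of the stop codon. Those of Socs4 (chr14:47289820-47289840), Socs5 (chr17:87134858-87134878) and Socs7 (chr11:97363137-97363157), all on the plus strand, also lay in coding sequence, 1090, 376 and 1234 bases before that end. The Socs2 and Cish sites shared 11 of 21 bases, with an unbroken run of 9, GGACTGCCT, and the Cish and Socs5 sites shared 13. These pairs had the longest run and the most matches of all pairs. GGACT was shared by the way the sites were chosen, and 6 and 8 of the matches lay outside it. Likeness beyond the motif was not tested. The peaks used held 2 GGACT in Socs2, 2 in Socs3, 4 in Cish, 1 in Socs4, 3 in Socs5 and 2 in Socs7. A match describes the letters in the peak, and which adenosine was methylated cannot be read from peaks of this width.

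The first comparison asks where the family carried m6A and how strongly. All 8 members had peaks in both genotypes, 27 listed for the WT and 28 for the cKO. Peak strength is the authors' log2 of IP over input per peak, which relates the antibody signal to the transcript's own level. The WT family peaks had a median log2 of 1.35, with a range of 0.59 to 5.12, against a median of 1.22 over all 36507 WT peaks. In the cKO list the family median was 1.62 against 1.30 over all 38697 peaks, and the highest family value was 4.04. Of the WT family peaks, 11 (40.7%) were at least 4-fold over input, against 21.2% of all WT peaks. The corresponding cKO numbers were 9 (32.1%) and 20%. The family thus had more than its series-wide share of strong peaks in both lists, as a description of 1 library pair per genotype.

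Family peaks lay mostly in 3' UTRs by the authors' region names. In the WT list 21 of 27 (77.8%) were in 3' UTRs, 4 in 5' UTRs and 2 in introns, while 56.2% of all WT peaks were in 3' UTRs. In the cKO list 20 of 28 were in 3' UTRs, 5 in 5' UTRs, 2 in other exonic sequence and 1 in an intron. Several peaks named 3' UTR ran far into the coding sequence. A peak over the stop codon was present in 7 of 8 members in the WT, all but Socs7, against 52.4% of 11876 genes with a peak and a coding transcript. It was present in 7 of 8 in the cKO, all but Socs1, against 51.1% of 11933 genes. Both lists had it in 6 members.

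**Figure D1:**
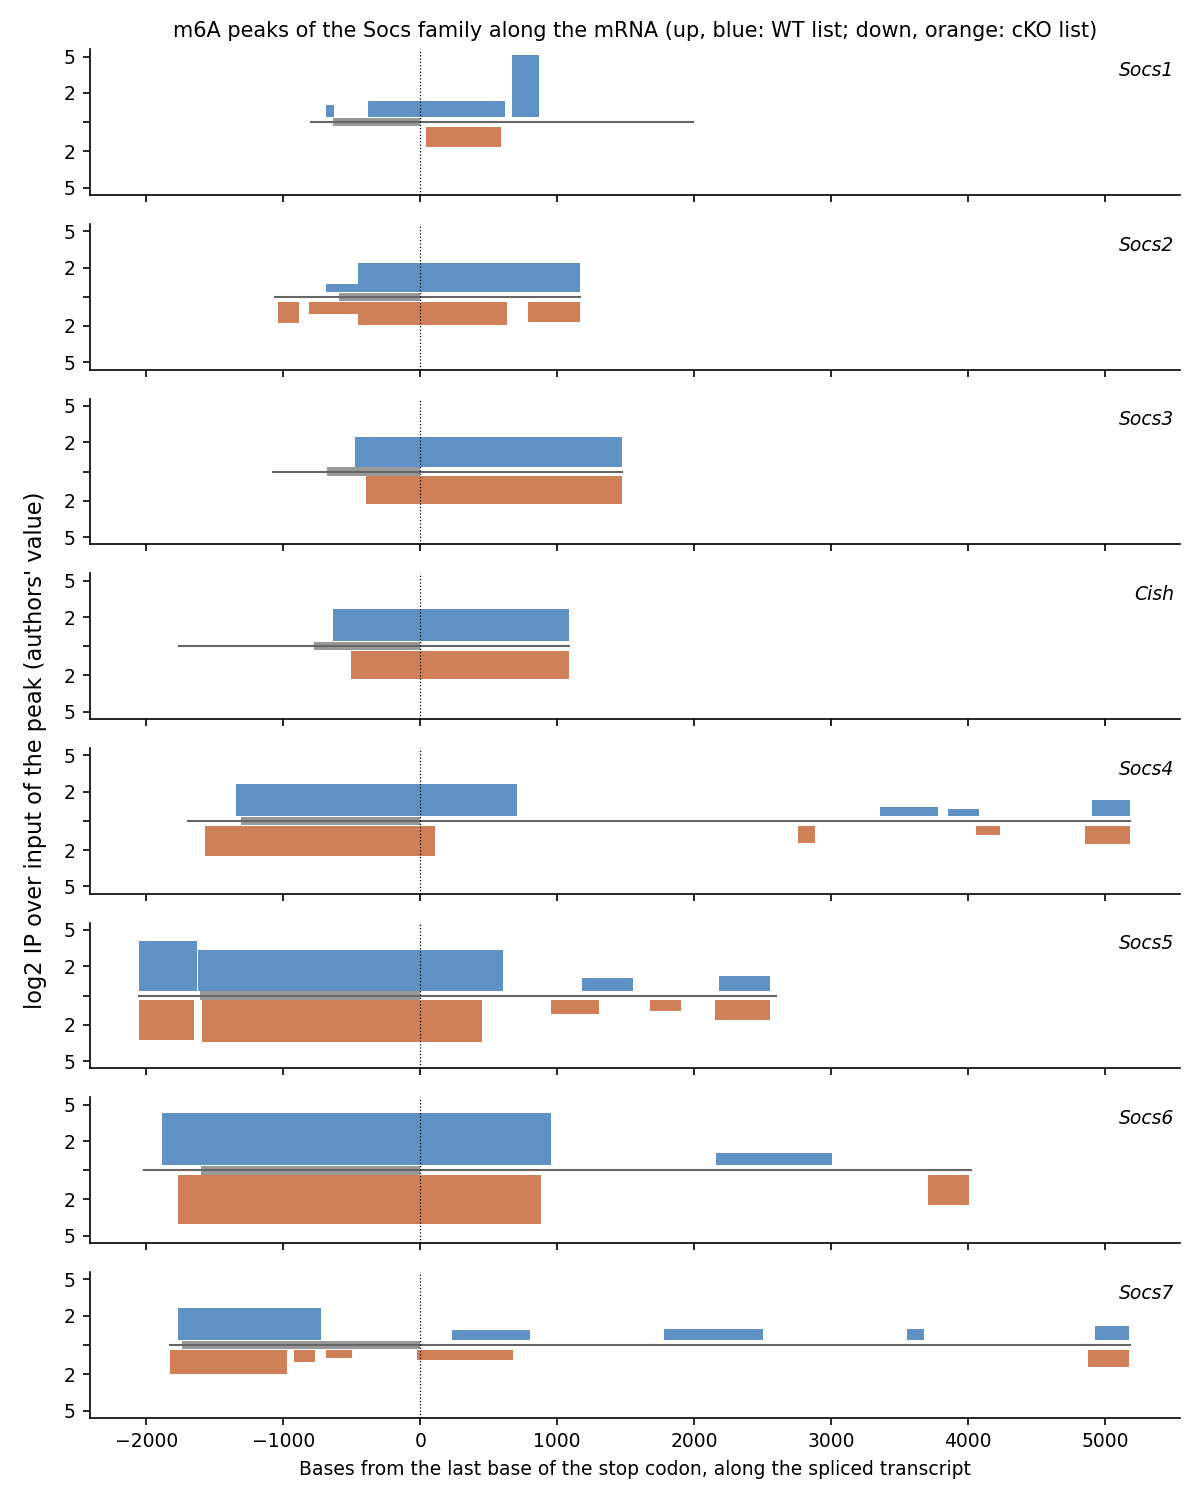
Peaks on the main coding transcript of each member, by distance in bases from the last base of the stop codon (x axis) and log2 IP over input (y axis, 1 value per peak; WT upwards in blue, cKO downwards in orange; grey box: coding sequence). The block over the stop codon recurs in Socs2 to Socs6 and Cish in both genotypes, and the narrow WT block of Socs1 at 5.12 has no cKO counterpart; peaks in introns or on other Socs2 transcripts are not drawn.

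Among the cytokine-inducible members, Socs3, the main inhibitor of signalling through the interleukin-6 receptor subunit gp130, carried a single peak in each genotype. It lay on the minus strand of chromosome 11 (gene ENSMUSG00000053113, 117966079 to 117970047), spanned 117966079 to 117968028 in the WT, and covered the whole 3' UTR and 70.2% of the coding sequence. Its log2 IP over input was 2.46 in the WT and 2.24 in the cKO. Cish, an inhibitor of Stat5 signalling (gene ENSMUSG00000032578, chromosome 9, 107296026 to 107302784, plus strand), had the same layout. Its stop codon peak at 107300043 to 107302165 covered 82% of the coding sequence and the whole annotated 3' UTR, at 2.63 (WT) and 2.34 (cKO). A weak intronic peak of Cish lay at different places in the 2 lists, at 0.73 (WT) and 0.59 (cKO).

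Socs2, known for limiting growth hormone signalling (gene ENSMUSG00000020027, chromosome 10, 95385362 to 95417180, minus strand), had 5 WT peaks, as did Socs5 and Socs7, and 8 cKO peaks, the most of the family in that list. The WT peak over the stop codon, at 95401721 to 95414661, reached 2.38 and was matched by a pair of cKO peaks at 1.89 and 1.68. A set of further peaks lay on a transcript annotated for nonsense-mediated decay (NMD), ENSMUST00000139210, downstream of the main one. There the peak at 95387087 to 95387561 had 1.62 in the WT and 2.91 in the cKO, the strongest Socs2 peak of the cKO list. In the 5' UTR a shared peak had 0.64 in the WT and 0.99 in the cKO, and the cKO list held a further 2 5' UTR peaks, at 1.74 and 1.55. The other overlapping peaks on the NMD transcript had 2.07 and 2.35 in the WT list and a single value of 2.20 in the cKO list. Socs2 thus had the higher WT value over the stop codon and the higher cKO value at its 5' end and at the last NMD peak.

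Socs1, which inhibits Jak kinases directly and restrains interferon signalling (gene ENSMUSG00000038037, chromosome 16, 10782240 to 10785536, minus strand), differed most between the lists. The WT list had 3 Socs1 peaks. The weakest, in the 5' UTR, was at 1.04, and the peak over the stop codon (10783615 to 10784614) was at 1.35. The third, 200 bases of 3' UTR at 10783365 to 10783564, starting 669 bases after the stop codon, was at 5.12, above 98.1% of the strongest peaks of WT genes. The cKO list had 1 Socs1 peak, at 1.61, which began 44 bases after the stop codon and overlapped the middle one of the WT. Although the 5.12 peak was the strongest of the family and absent from the cKO list, its p of 0.000313 per the authors' deposited table was larger than that of the Socs1 stop codon peak at 4.55e-38. The differential table, which holds only peaks with p up to 0.05, lists 0 Socs1 peaks, so no p is held for a difference there.

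Among the members with long N-terminal parts, Socs6 had the strongest stop codon peak. In this gene (ENSMUSG00000056153, chromosome 18, 88665224 to 88927481, minus strand), which encodes an inhibitor of the receptor kinase Kit, the peak had 4.33 in the WT and 4.04 in the cKO. It covered 100% of the coding sequence in both. The gene's other peaks did not coincide. A WT peak at 1.04 lay 2159 to 3008 bases after the stop codon, and a cKO peak at 2.42 lay 3709 to 4008 bases after it.

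Socs5, which acts on interleukin-4 and epidermal growth factor signalling (gene ENSMUSG00000037104, chromosome 17, 87107679 to 87137839, plus strand), carried 2 strong peaks in each genotype. The stop codon peak was at 3.38 (WT) and 3.44 (cKO). The 5' UTR peak, which spans an intron from 87107679 to 87120803, was at 4.07 (WT) and 3.23 (cKO). Both are strong by the standard of either list, the 5' UTR peak above 97.7% of all WT peaks and 95.1% of all cKO peaks. A pair of weaker 3' UTR peaks had 1.05 and 1.18 in the WT and 1.12 and 1.64 in the cKO.

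Socs4, like Socs5 a regulator of the epidermal growth factor receptor (gene ENSMUSG00000048379, chromosome 14, 47276931 to 47296102, plus strand), had a stop codon peak over its whole coding sequence at 2.65 (WT) and 2.49 (cKO). Its other WT peaks, in the distal 3' UTR, had 0.77, 0.59 and 1.32, and its other cKO peaks 1.40, 0.73 and 1.52. Socs7, which binds insulin signalling adaptors (gene ENSMUSG00000038485, chromosome 11, 97362435 to 97398542, plus strand), had its main peak at the 5' end of the transcript and no WT peak over the stop codon. That peak, named 5' UTR by the authors, held 1018 coding and 32 5' UTR bases and had 2.66 in the WT, and a pair of cKO peaks over it had 1.95 and 0.98. The other 4 WT peaks of Socs7, all in the 3' UTR, ranged from 0.86 to 1.14. In the cKO a weak peak at 0.82 reached the stop codon with 22 coding bases.

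Ordered by the strongest WT peak, the members ran Socs1, Socs6, Socs5, Socs7, Socs4, Cish, Socs3 and Socs2, and by the strongest cKO peak Socs6, Socs5, Socs2, Socs4, Cish, Socs3, Socs7 and Socs1. In the WT, Socs7, Socs4 and Cish lay between 2.63 and 2.66 and their order cannot be read from 1 library pair. The median strongest peak of the 8 genes was 2.65 in the WT and 2.42 in the cKO, against 1.85 and 1.88 over all genes with a peak. Socs6 and Socs5 stayed above 90% of genes in both lists. Socs1 went from a percentile of 98.1 to 34.3.

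The peak sequences were searched for DRACH and for GGAC on the strand of the gene, in exonic bases; a GGAC followed by A, C or T is also a DRACH. Family peaks held DRACH at 21.2 per kb in the WT and 19.5 in the cKO, against 21.1 over all peaks in both lists. GGAC came to 3.90 and 4.49 per kb, against 4.38 and 4.34. The family's density was thus near that of all peaks, while some single peaks differed widely. The strongest WT peaks of Socs3, Cish, Socs6 and Socs7 held 18.5, 20.3, 19.7 and 18.1 DRACH per kb. Peaks of like length had 21.3 to 21.7. The peaks that follow are the ones furthest from such values. The 200-base WT peak of Socs1 held 8 DRACH, or 40 per kb, where WT peaks of like length had 20, and 97.9% of those held at least 1. The WT 5' UTR peak of Socs5 held 2 in 425 bases, or 4.71 per kb against 20.8 in peaks of like length. The WT peak at the start of Socs7 had 11 GGAC, or 10.5 per kb against 4.78, and the Socs2 stop codon peak 54 DRACH, or 33.3 per kb against 21.6.

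The second comparison sets peaks of the cKO against those of the WT. How the IP was scaled against its input is not given in the sources used here, and a uniform drop in m6A across the transcriptome could be hidden by that scaling. Of the 27 WT family peaks, 19 (70.4%) overlapped a cKO peak, against 73.2% of all WT peaks, and of the 28 cKO family peaks 20 (71.4%) overlapped a WT peak, against 71.3%. The family thus lost and gained listed peaks at about the rate of the whole lists. Requiring the overlap to cover at least 50% of both peaks left 11 of the 19. The share of all WT peaks left at that setting is not given here, so this drop cannot be called particular to the family. Beside the Socs1 peak at 5.12, the WT peaks with no cKO partner ranged from 0.73 to 1.82, in Socs1, Cish, Socs4, Socs5, Socs6 and Socs7. The cKO peaks with no WT partner ranged from 0.59 to 2.42, in Socs2, Cish, Socs4, Socs5, Socs6 and Socs7. Socs3 had none in either list.

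The authors' deposited table of differential peaks gave 9 peaks in 6 of the 8 members, all but Socs1 and Socs5, where 49.9% of genes with a peak had at least 1. Of the 9, 8 were lower in the cKO, against 51.1% of all 10355 listed peaks. At an adjusted p below 0.05 per the authors' deposited table the family had 8 lower and 0 higher peaks, against 54.3% lower among all 5519 such peaks. At least 1 lower peak at that threshold was present in 6 of the 8 members, against 18.0% of all genes with a peak. In the WT list the family had 3.38 peaks per gene, against 2.64 over all genes with a peak. The part of peak number, length and strength in this count was not tested. The single higher peak, in Socs2, had an unadjusted p of 0.022 and did not pass. These p-values come from single libraries and carry no spread between cultures.

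**Figure D2:**
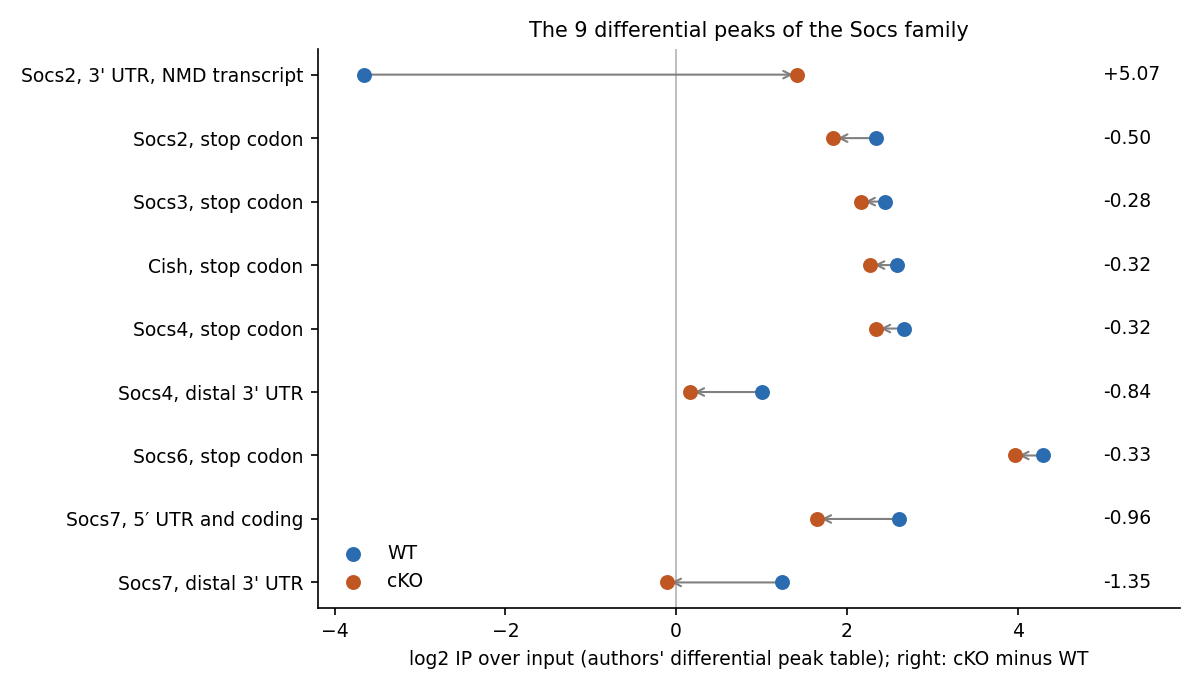
The 9 family peaks in the authors' differential peak table, with log2 IP over input in the WT (blue) and cKO (orange) on the x axis, 1 value per genotype with no replicates, and the cKO minus WT difference at the right. The 8 lower peaks moved left, by 0.28 to 1.35, and the Socs2 peak on the NMD transcript moved right from -3.65 to 1.42.

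Among the inducible members, the Socs3 peak at 117966079 to 117968003 stood at a log2 IP over input of 2.44 (WT) and 2.16 (cKO) per the authors' deposited table. The difference of -0.28 leaves 82.5% of the WT ratio, and its adjusted p of 3.74e-32 per the authors' deposited table was the smallest of the family. The Cish peak went from 2.59 to 2.28, a difference of -0.32 at an adjusted p of 1.87e-05 per the authors' deposited table. The Socs2 peak over the stop codon (95401721 to 95413583) went from 2.34 to 1.84, a difference of -0.50 that leaves 70.8% of the WT ratio (adjusted p 0.00329 per the authors' deposited table). These 3 peaks fell, and each kept a ratio well above input in the cKO.

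The other Socs2 peak, 175 bases at 95392453 to 95392627 on the NMD transcript, had -3.65 in the WT and 1.42 in the cKO. Its difference of 5.07 had an adjusted p of 0.105 per the authors' deposited table. The WT value is below input, the WT list held no peak there, and the cKO list had one at 1.31 with a p of 0.0164 per the authors' deposited table. The numbers of reads behind these 2 values were not analysed here.

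Of the members with long N-terminal parts, the Socs6 stop codon peak fell from 4.29 to 3.96, a difference of -0.33 (adjusted p 0.00418 per the authors' deposited table). The Socs4 peak over the coding sequence and stop codon (47277206 to 47291425) fell from 2.67 to 2.34, by 0.32 (adjusted p 0.0156 per the authors' deposited table). The difference was -0.16 when the values of the peak lists were used. Socs4 had a second, 100-base differential peak in its distal 3' UTR (47294551 to 47294650), which fell from 1.002 to 0.16, or to 55.9% of the WT ratio (adjusted p 0.0199 per the authors' deposited table). That stretch held 0 DRACH.

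Socs7 had the largest falls of the family. Its peak over the 5' UTR and coding sequence (97362485 to 97377062) fell from 2.61 to 1.65, a difference of -0.96 that leaves 51.4% of the WT ratio (adjusted p 0.031 per the authors' deposited table). Its 300-base peak in the distal 3' UTR (97395362 to 97395661) fell from 1.24 to -0.11, no longer above input, which leaves 39.2% (adjusted p 0.00578 per the authors' deposited table). It was the only family peak past an absolute log2 difference of 1 at an adjusted p below 0.05. That peak held 9 DRACH in 300 bases, or 30 per kb.

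The falls of the family were numerous and small. The 8 lower peaks had a median difference of -0.41, against -0.55 over all 2997 lower peaks with an adjusted p below 0.05. Of these 8, 5 covered the stop codon (Socs2, Socs3, Cish, Socs4 and Socs6). Of all 9157 listed differential peaks with an annotated stop codon, 28.9% did. That background holds lower and higher peaks with no cut on adjusted p, so it is not a like set for the 8. The share among lower peaks with an adjusted p below 0.05 is not given here. The 5 differed by -0.28 to -0.50 and left 70.8% to 82.5% of the WT ratio, a narrower range than the other 3, at 39.2% to 55.9%. All 8 had been selected by adjusted p, and the part of that selection in this contrast was not tested.

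The share of lower peaks differed between strength groups of the whole table, and the family's differential peaks were mostly strong. Their median mean of WT and cKO log2 was 2.13, against 1.30 over all listed peaks. With all differential peaks split by that mean into 5 equal groups, 85.5% of the strongest group were lower in the cKO, and 4 family peaks lay there, those of Socs3, Cish, Socs4 and Socs6, all lower. Of the next group 58% were lower, and the Socs2 and Socs7 peaks there were both lower. In the weakest group, where 45.4% were lower, the family had 3 peaks, 2 of them lower. The 2 groups between, where 37.9% and 28.7% were lower, held no family peak, so the share did not rise steadily with strength. The median difference of the lower peaks in the strongest group was -0.47, a larger fall than the -0.28 to -0.33 of the 4 family peaks there. In the weakest group the median of all lower peaks was -1.26. The part that strength played in the family's split was not tested.

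**Figure D3:**
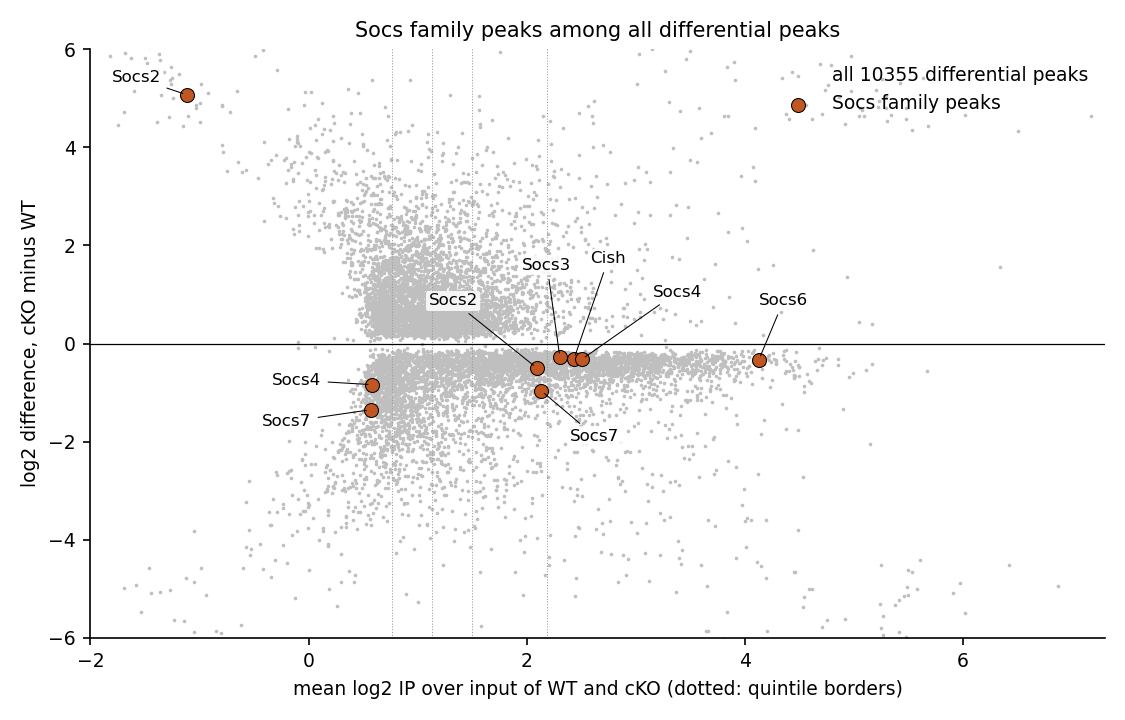
Log2 difference in IP over input, cKO minus WT (y axis), against the mean log2 of both genotypes (x axis) for all differential peaks (grey) and those of the family (orange), with dotted lines at the borders of the 5 strength groups. The peaks of Socs3, Cish, Socs4 and Socs6 sit in the dense band just below 0 at the strong end; 89 grey points beyond 6 either way are not drawn.

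Peaks matched between the lists split differently from those in the differential table. Of the family peaks, 15 matched one to one between the lists, and 6 were lower and 9 higher in the cKO list, with a median difference of 0.08. Over all 19387 such peaks 45.2% were lower and the median was 0.04. The family's split was thus near that of all matched peaks. The 4 matched peaks that overlapped a differential peak were all lower. Of the other 11, 9 were higher, in Socs1 (0.26), Socs2 (0.34 and 1.29), Socs4 (0.14 and 0.20), Socs5 (0.06, 0.08 and 0.46) and Socs7 (0.29), with no call by the authors. The same share over all matched peaks outside the differential table is not given here, so this count is no result about the family. The Socs5 5' UTR peak, at -0.84, was the lowest of the 15 and yet is not in the differential table. The Socs5 stop codon peak, the strongest after that of Socs6, differed by 0.06. The higher peaks were mostly weak ones in the WT, while the stop codon peaks of Socs3, Cish, Socs4 and Socs6 lay at the strong end and were lower. The WT value enters both this order and the difference, and the part of that in the pattern was not tested.

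**Figure D4:**
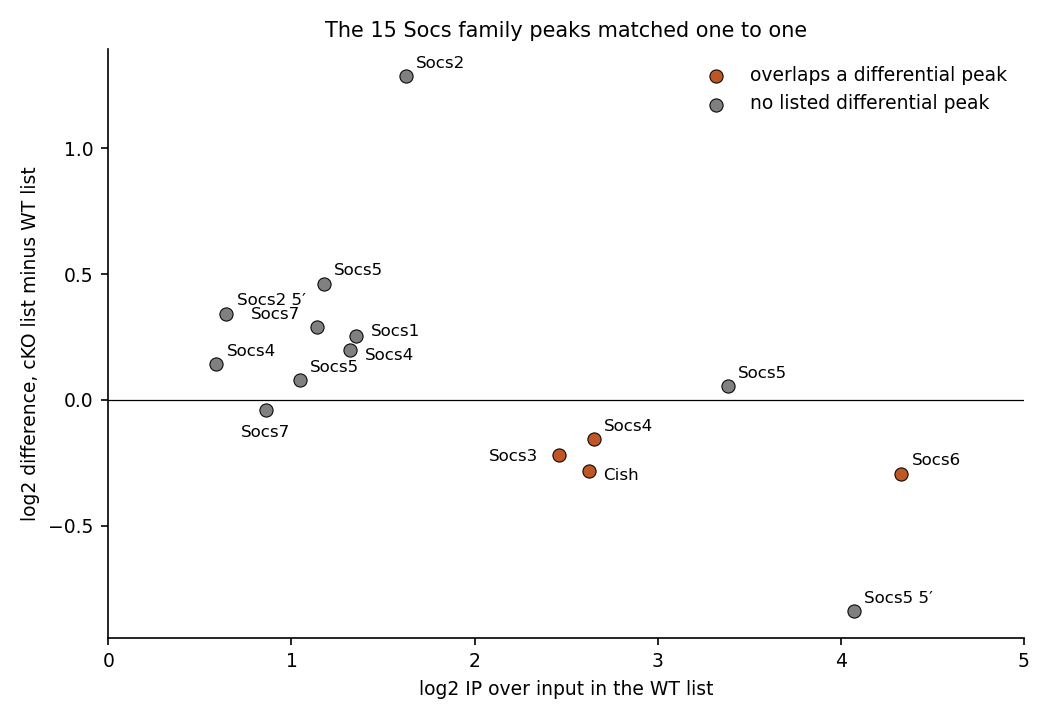
Log2 difference, cKO list minus WT list (y axis), against the WT log2 IP over input (x axis) of the 15 family peaks matched one to one, orange where a differential peak overlaps. The 4 orange points lie between -0.29 and -0.16, while all but 1 of the 9 higher peaks are at a WT log2 under 2. The WT value enters both axes.

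The third comparison asks how the transcripts themselves stood in the input. Input levels are the authors' FPKM, scaled to transcript length and library size, so levels can be set beside each other between genes. They were held only for genes with a differential peak, 6 members among them, and Socs1 and Socs5 were not analysed here. Socs3 was by far the most abundant, at 175 FPKM in the WT and 160.7 in the cKO, and its WT level was above that of 97.4% of the 6079 genes whose mean FPKM reached 1. Cish followed at 10.8 and 9.23, then Socs4 at 7.71 and 7.39 and Socs7 at 3.02 and 3.83 FPKM. Socs2 had 2.03 in the WT and 1.96 in the cKO, and Socs6 1.95 and 2.04, so that these last 2 exchanged places between single libraries.

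None of the 6 moved by 2-fold, which 0.839% of the 6079 genes did. On the log2(FPKM + 1) scale, which understates changes of low genes, the cKO minus WT difference was -0.12 for Socs3, -0.21 for Cish, -0.05 for Socs4, 0.27 for Socs7, -0.03 for Socs2 and 0.05 for Socs6. The unadjusted p-values per the authors' deposited table ran from 0.584 for Socs7 to 0.961 for Socs2, and their adjusted values were all 1. The median of the 6 was -0.04, against -0.02 over all 6079 genes, of which 54.2% were lower. Their lower and upper quartiles were -0.15 and 0.12. Cish, at -0.21, and Socs7, at 0.27, were outside that range and the other 4 inside it. The inducible members Socs3, Cish and Socs2 were each nominally lower, but so was Socs4, so this was not particular to them. Socs7, which had the largest falls in IP over input, had the largest nominal gain in input, the denominator of that ratio, and the part of one in the other was not tested.

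**Figure D5:**
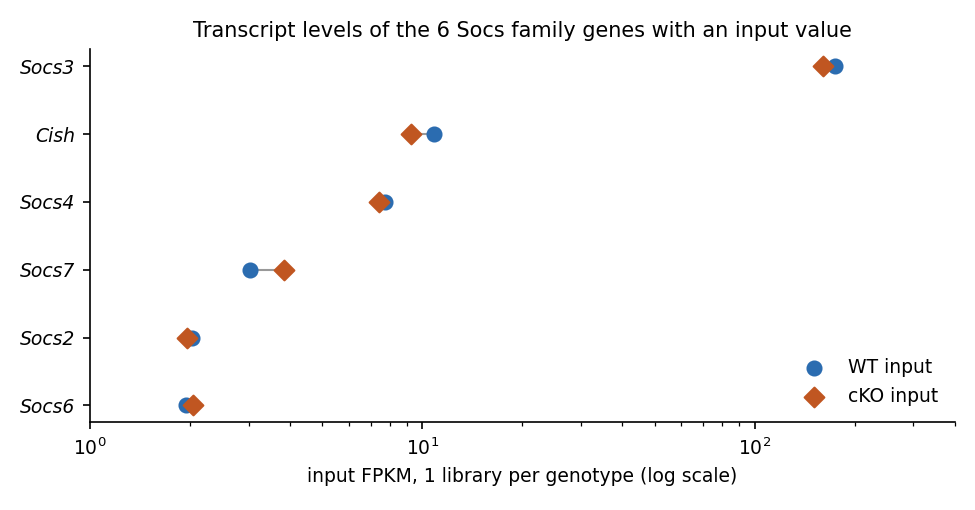
Input FPKM (x axis, log scale) of the 6 members with a value, 1 WT (blue circle) and 1 cKO library (orange diamond) each, with no replicates. Socs3 stands far to the right, at 175 and 160.7, and the other 5 members below 11, and the genotypes' points lie close together for each gene.

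Marker genes describe the cells behind these values. In the input, 9 of 12 macrophage markers had a value, and their summed level was 5465 FPKM in the WT and 3811 in the cKO, with 7 lower and 2 higher. The largest part was Lyz2, the lysozyme M gene whose promoter drives the Cre, at 3393 and 1980. Without it the other 8 summed to 2072 and 1831, and Cd68 had 695.4 and 633.5. The 8 of 10 mesenchymal markers with a value summed to 112.7 in the WT and 200.9 in the cKO, and 3 of 10 epithelial markers to 7.78 and 11.3, nearly all of it Krt19. The 2 lymphocyte markers of 8 with a value summed to 1.10 and 0.64 and the 2 neutrophil markers of 8 to 21.7 and 22.0; no marker with a value was listed at 0, and values of the epithelial markers Epcam, Cdh1, Krt8 and Krt18 were not analysed here. Whether MC38 cells contributed Socs transcripts was not tested, and in bulk RNA fewer cells of a type and less RNA per cell cannot be told apart. The part of cell composition in the family's values was not tested. Mettl3 itself had 2 WT and 4 cKO peaks, no differential peak and no input value here, so the deletion was not checked.

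The partners and targets of the family were read from lists of pathway genes. For the ubiquitin ligase that SOCS boxes join, 3 of the 7 genes had peaks with an adjusted p below 0.05 per the authors' deposited table, 3 higher and 0 lower. They were those of Rbx1, a gene for a RING subunit of cullin ligases (from -0.64 to 1.83, a difference of 2.47), Elob, which encodes Elongin B (0.45), and Nedd8, whose product activates cullins (0.23). A listed differential peak was present in 4 of the 7 genes, against 49.9% of all genes with a peak. The 5 listed peaks of these genes had a median mean strength of 1.43, below the 2.13 of the family. In the strength group from 1.13 to 1.5, 27.7% of peaks at an adjusted p below 0.05 were lower. Of the 3 named peaks, that of Nedd8 lay in that group. The Rbx1 peak lay in the weakest group, where 43.5% at that threshold were lower. The Elob peak lay in the group from 1.5 to 2.19, where 60.4% were lower. The direction of the 3 peaks was opposite to that of the family, and the part of strength in it was not tested. Input of the ligase genes was 2 higher and 2 lower of 4, with a median of 0.03. Of 18 differential peaks in 19 other genes for SOCS-box proteins, 8 were lower and 4 higher at an adjusted p below 0.05 per the authors' deposited table, where 54.3% of all such peaks were lower. The largest differences were those of Asb11 (3.49), Klhdc1 (2.37) and Asb7 (-1.81), and the input median was -0.01.

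The next lists hold the kinases and transcription factors that the family restrains, with 54.3% of all peaks at an adjusted p below 0.05 lower as the background for each count. Jak1 (-0.48) and Jak2 (-0.33) fell and Jak3 rose (1.51), each at an adjusted p below 0.05 per the authors' deposited table, and the Stat list had 3 peaks that fell and 0 that rose, among them those of Stat2 (-0.31) and Stat6 (-0.28). Input of all 3 Jak genes and all 4 Stat genes with a value was nominally lower, with medians of -0.08 and -0.25. So was that of 54.2% of the 6079 genes with a differential peak and a mean FPKM of at least 1. Stat6 had 33.8 FPKM in the WT and 28.3 in the cKO. Of the 28 cytokine receptor genes, 14 peaks fell and 5 rose at that threshold, against the same 54.3%, with the largest differences in Lifr (-2.88), Osmr (1.31) and Ifnar2 (-0.61), while their input median was 0.02. Other inhibitors of the pathway had 8 peaks that fell and 4 that rose, a split not far from the 54.3% of all such peaks, among them those of the ubiquitin ligase gene Cblb (-0.75), the phosphatase gene Ptprc (0.67) and Pias1 (-0.60). Their input median was -0.17, with Ptpn6 at 22.7 FPKM in the WT and 16.4 in the cKO.

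Transcripts known to be switched on by Stat factors had 7 peaks that fell and 4 that rose at an adjusted p below 0.05 per the authors' deposited table, again near the 54.3% lower of all such peaks. The largest differences were in Id1 (2.21), Ifit2 (-0.55) and Osm (-0.50). In the input, 11 of 14 of these genes were nominally lower, and the list's median was -0.13 against -0.02 over the same 6079 genes. Irf1, a transcription factor of interferon responses, had 47.7 FPKM in the WT and 21.4 in the cKO, and Id1 had 2.20 and 1.23. Socs3, Cish and Socs2 are themselves Stat targets, with 160.7, 9.23 and 1.96 FPKM in the cKO. Their differences of -0.12, -0.21 and -0.03 lay on both sides of the list's median of -0.13. Irf1 was named for the largest input difference of its list, so a smaller difference of the members was fixed by that choice. None of the genes named here from the lists had an adjusted p under 1 for input per the authors' deposited table.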

How the data were processed

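m6A sequencing was done on 4 libraries, 1 IP and 1 input per genotype, and 4 deposited tables were used. The submitters' processing notes name fastp, HISAT2, HOMER, ChIPseeker, StringTie, edgeR and mm10, without role or order. No source used here gives the peak caller, versions, strand of counting or depth per library. Per the file headers, the peak lists and the differential table hold log2 IP over input, its cKO minus WT difference, and p-values and adjusted p-values as the authors deposited them. The gene table holds the authors' FPKM, fold ratio, p-value and q-value of the input, for genes with a differential peak. Every p listed for a peak was at most 0.05.

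Starts count from 0 in the files (4802 WT peaks start 1 below the gene start, 0 at it) and are printed 1-based. The WT column of the differential table followed the WT list (median absolute difference 0.0399 at 1619 shared positions, 0.441 for the cKO column). Peaks overlapped at 1 bp or more on the same strand. They were placed on GENCODE M21 transcripts (99.6% found), from which sequences were read. Peaks of like length are 0.8 to 1.25 times as long. Input differences used a pseudocount of 1 and a mean FPKM of at least 1. All members and Mettl3 were named, and of each list at most 3 differential peaks and 2 input values, by largest absolute difference, except 1 list gene whose values are not reported here. Members and lists were chosen with earlier results of these data known. With 1 sample per group no test was run, and p-values are the authors'. Overlap and motif counting were tested on simulated data. Python 3.11.15, pandas 2.3.3, numpy 2.4.6 and matplotlib 3.10.9 were used.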

Additional observations from a re-analysis of the deposited data

How the results depend on the processing

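Of 51 values under other settings, 42 kept their direction and stayed within 1.5 times the reported value, 9 moved further and 0 changed sign. With an overlap of at least 50% of both peaks, 11 of the 19 overlapping WT family peaks were left, with no share over all WT peaks to set beside it. Adding an absolute log2 difference of at least 1 to the adjusted p left 1 lower family peak of 8 and 0 higher, and the adjusted p alone also left 0 higher. From the peak lists, the Socs4 stop codon peak differed by -0.16 in place of -0.32. Small input differences moved with the scale, to -0.0329 for Socs4 and -0.0121 for Socs2 after centring on all genes, and to -0.0484 for Socs2 and 0.0697 for Socs6 with no pseudocount. The cause was not tested. List values could not be had for 5 differential peaks (both of Socs2 and Socs7, the distal one of Socs4), where the lists hold other than 1 peak each. No paired analysis was possible because each group has 1 sample, which also leaves no replicate to leave out. Read depth is unknown, so the precision of each peak value is unknown too.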
